A study of Mus musculus with 6 samples.

Results

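The let-7 guide strands and miR-98 are the 9 rows of the deposited miRNA table named mmu-let-7a-5p, mmu-let-7b-5p, mmu-let-7c-5p, mmu-let-7d-5p, mmu-let-7e-5p, mmu-let-7f-5p, mmu-let-7g-5p, mmu-let-7i-5p and mmu-miR-98-5p, out of 1626 rows; the species prefix mmu is mostly left off below. They were chosen by name, as the 5p arms of the family. Small RNA of fetal liver, where red cells form before birth, was sequenced from 3 wild-type (WT) libraries, numbered 1 to 3, and from 3 libraries of embryos homozygous for a deletion of the miR-144/451 locus (miR-144/451-/-, here KO), numbered 4 to 6. All 6 came from the C57BL/6J strain, with the same number of fetal liver cells taken for each. The labels give no embryonic day and do not say whether replicates were separate embryos. A p-value here therefore measures library-to-library spread only, part of which may be technical. Sequencing yielded 16243894 to 27089133 miRNA counts per library.

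A mature miRNA guides an Argonaute protein to messenger RNAs, mainly through pairing of its seed, bases 2 to 8 from the 5′ end. let-7 is made from many gene copies, rises as animal tissues mature, and represses growth-promoting targets such as Hmga2, Lin28 and Igf2bp mRNAs. In blood formation the LIN28B and let-7 axis is known to separate fetal from adult programmes, and LIN28 proteins bind let-7 precursors and block their processing.

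The mature sequences, from RefSeq (GRCm38.p6, all 9 members matched), are printed because the differences between them decide which rows can be read apart. Capitals mark the seed, which was GAGGUAG in every member. The last line is let-7k, the other row of the table with that seed.
let-7a-5p: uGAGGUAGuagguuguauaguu
let-7c-5p: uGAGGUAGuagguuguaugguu
let-7b-5p: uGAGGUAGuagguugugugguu
let-7f-5p: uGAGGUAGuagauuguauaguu
let-7g-5p: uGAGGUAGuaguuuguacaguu
let-7i-5p: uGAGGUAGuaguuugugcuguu
miR-98-5p: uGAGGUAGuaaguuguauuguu
let-7d-5p: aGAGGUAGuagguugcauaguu
let-7e-5p: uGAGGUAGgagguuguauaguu
let-7k: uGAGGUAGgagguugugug

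All 9 members were 22 nucleotides (nt) long. Counting bases from the 5′ end and giving the let-7a-5p base first, let-7c-5p differed from let-7a-5p by A19G and let-7b-5p by A17G and A19G, so these 3 were identical over their first 16 bases. Substitution A17G and substitution A19U separate let-7i-5p from let-7g-5p, again only after base 16. The other members had at least 1 change within the first 16 bases: G12A in let-7f-5p, G11A in miR-98-5p (with A19U further on), U9G in let-7e-5p, and U1A and U16C in let-7d-5p.

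The 9 rows held 6 separable signals, and the sequences above show which rows coincide. let-7c-5p held 97.7% to 98.7% of the let-7a-5p counts in each of the 6 libraries, and let-7b-5p 92.8% to 96.1%. let-7i-5p held 100.4% to 101.1% of the let-7g-5p counts, and let-7k 97.8% to 98.3% of the let-7e-5p counts. In every one of these 5 pairs (let-7a with let-7b, let-7a with let-7c, let-7b with let-7c, let-7g with let-7i, let-7e with let-7k) the first 16 bases were the same, and the largest difference in any library was 7.19% of the larger row. Pairs that differed earlier lay further apart, the closest being let-7b-5p with let-7i-5p, which share 11 first bases and differed by up to 12.3%. From let-7a-5p, let-7f-5p, with 1 changed base at position 12, differed by up to 30.6%. For let-7e-5p, with 1 changed base at position 9, this was up to 98.3%. Outside the family, 10 of 13 row pairs with the same first 16 bases and a mean of at least 100 counts also lay within 10% of each other in every library. How the authors counted reads matching several miRNAs is not given in the sources used here. let-7a, let-7b and let-7c are therefore given below as 1 signal, and likewise let-7g with let-7i and let-7e with let-7k.

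**Figure D1:**
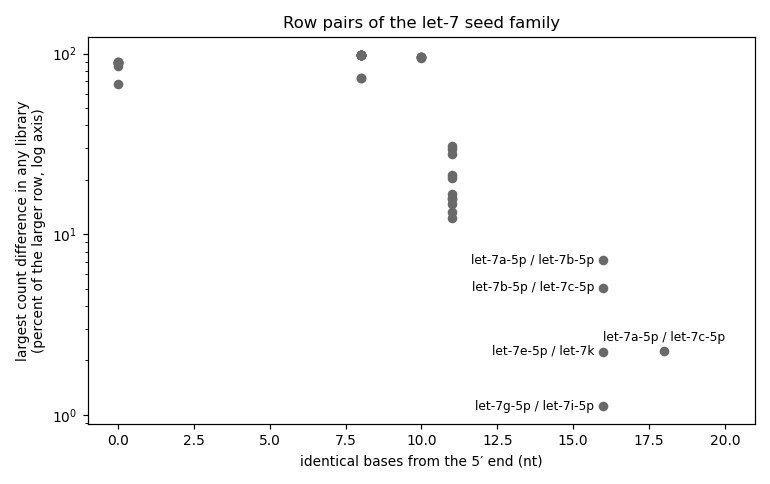
Each point is a pair among the 9 members and let-7k: the horizontal axis gives the number of identical bases from the 5′ end, the vertical log axis the largest difference of their counts in any of the 6 libraries, as percent of the larger row. The labelled pairs share at least 16 bases and lie at 1.12% to 7.19%, below all pairs that share fewer.

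A row outside the family followed let-7g closely. miR-3962, named after its values were seen, is annotated on chromosome 1 (194822035 to 194822054, plus strand, GRCm38.p6), away from every let-7 gene. It is shown with let-7g-5p because its first 17 bases, in capitals, are bases 3 to 19 of let-7g-5p.
miR-3962: AGGUAGUAGUUUGUACAuuu
let-7g-5p: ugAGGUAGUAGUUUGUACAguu

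Its WT libraries held 232437, 302340 and 236940 counts and its KO libraries 258765, 265986 and 349263. This is 67.2% to 72.0% of the let-7g-5p count in every library. A ratio this steady was not particular to miR-3962, as let-7g-5p held 119.1% to 125.9% of the counts of let-7f-5p, a separate signal. Whether these are let-7g reads counted from the third base or reads of a separate gene was not tested. The row took 1.04% to 1.12% of WT counts and 1.45% to 1.61% of KO counts, and it was kept out of the family pool below.

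The 12 hairpins that encode the family lie on 7 chromosomes, most of them close to another miRNA (positions from RefSeq, GRCm38.p6, host genes from GENCODE M21). On chromosome 13, minus strand, Mirlet7d (48536012 to 48536114), Mirlet7f-1 (48537829 to 48537917) and Mirlet7a-1 (48538179 to 48538272) lie in exons of the long non-coding RNA 6720427I07Rik. On the X chromosome Mirlet7f-2 (151912346 to 151912428) and Mir98 (151913214 to 151913321) lie 786 nt apart in an intron of Huwe1, a ubiquitin ligase gene. Mirlet7c-2 (85706603 to 85706697) and Mirlet7b (85707319 to 85707403) lie on chromosome 15 in exons of the non-coding transcript Lncppara. Mirlet7e (17830352 to 17830444, chromosome 17) lies in an intron of Spaca6, 368 nt from Mir125a, and Mirlet7c-1 (77599657 to 77599750, chromosome 16) in an intron of Mir99ahg, 657 nt from Mir99a. Mirlet7a-2 (41536716 to 41536811, chromosome 9) lies 5212 nt from Mir100 in an intron of 3110039I08Rik. The other two are Mirlet7g (106178840 to 106178927, chromosome 9), in an intron of Wdr82, and Mirlet7i (122985640 to 122985724, chromosome 10), in an exon of the annotated pseudogene D630033A02Rik.

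The sequence between the 2 arms carried the letters GGAG, a motif known to be bound by LIN28, in 9 of the 12 hairpins (75%), searched on the transcribed strand only. Among 50 other mouse hairpins whose loop had the same range of lengths, 23 to 36 nt, 7 did (14%). The motif was not compared with the folds below.

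let-7 was one of the most abundant seed families of fetal liver. Rows of the same first 16 bases were counted once at their mean. The 9 members then took 4.83%, 5.05% and 4.47% of WT library counts and 6.98%, 6.96% and 6.78% of KO counts. The library totals still added every row in full, near-identical rows included, so these percentages mix unlike ways of counting. The same holds for the seed percentages below. Ranked by seed, over the 1376 rows with a RefSeq sequence and with let-7k added to the let-7e signal, the family stood 4th in WT, after the miR-451a, miR-16 and miR-93 seeds, and 2nd in KO, after miR-16. Its WT level was close to that of the miR-93 seed (4.78% and 4.79%), within the spread of the libraries. A plain sum of the 9 rows would give 8.86% to 10.3% in WT and 13.5% to 13.7% in KO, with the near-identical rows each added in full.

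The KO libraries lack the miR-144/451 products, and this moves every percentage. miR-451a alone took 13.6% to 20.5% of WT counts and 0.0174% to 0.0194% of KO counts. The other miRNAs together therefore take a larger part of a KO library, though not every row gains. The median log2 fold of all tested miRNAs outside the locus was 0.34 with library totals and -0.01 after TMM scaling, which sets the typical miRNA near 0. Other scalings put that median at -0.10 (locus removed before scaling) to 0.09 (upper quartile). In percent of the library 8 of the 9 members, all but let-7e-5p, had every KO library above every WT library, as had 31.2% of all tested rows. Levels below are TMM-scaled CPM, the CPM of each count over the TMM-scaled library total. Hepatocyte miRNA levels also varied within genotypes. The sum of the 4 listed (miR-122-5p, miR-192-5p, miR-194-5p and miR-802-5p) was 33939 to 131616 CPM in WT and 42261 to 102335 CPM in KO. It was highest in WT library 3 and KO library 6. Most of it was miR-122-5p, at 29326 to 117809 CPM in WT and 37312 to 92272 CPM in KO. miR-802-5p went otherwise in KO, at 62.0, 38.1 and 44.1 CPM, highest in KO library 4. The erythroid miR-486a-5p ranged over 43836 to 82230 CPM in the WT libraries and 49713 to 69777 CPM in the KO libraries. In bulk tissue, fewer cells of a type and less RNA per cell cannot be told apart.

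As a whole the family stood 1.10-fold or 1.13-fold higher in KO than in WT on the TMM scale. Whether the libraries overlapped depended on how let-7b was counted. The pool, with let-7a and let-7c counted once and let-7g and let-7i counted once, was 73557, 76938 and 67608 CPM in WT and 74667, 82622 and 83255 CPM in KO. This pool kept let-7b apart, as it differed from let-7c by up to 5.05%, above the 5% limit. It thus counted the let-7a, let-7b and let-7c signal more than once. The lowest KO library lay below the highest WT library. The means were 72701 ± 4724 and 80181 ± 4786 CPM (SD, n = 3 each), a log2 ratio of 0.14. With let-7b also merged into the let-7a signal, a choice made after seeing the data, the ratio was 1.13-fold (log2 0.17) and all 3 KO pools, 57196 to 63359 CPM, lay above the WT pools, 51117 to 56635 CPM. No test was made of the pool, since its members were chosen with results of these data known. The log2 ratio was 0.02 without WT library 3, 0.09 without KO library 5, 0.07 with RLE scaling, 0.24 with upper-quartile scaling and 0.50 in percent of the library.

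None of the 9 members passed the test between genotypes (edgeR quasi-likelihood, Benjamini-Hochberg adjusted p under 0.05), where 0.799% of the 876 tested miRNAs passed in either direction and 0.457% passed as higher in KO. DESeq2 and limma-voom also called 0 members, against 1% and 0.913% of the rows they tested. At an unadjusted edgeR p under 0.05, 2 members were higher in KO, let-7d-5p and miR-98-5p, where 9.59% of all tested rows were higher in KO by that rule. All 9 fitted folds, from 6 signals, were above 0 on the TMM scale, beside 416 of all 873 tested rows outside the locus. The folds of let-7a, let-7b, let-7c and let-7e were below 0 under DESeq2, RLE scaling and removal of the locus. The median over members, with each row of a shared signal counted, was 0.19 on the log2 scale, beside -0.01 for those 873 rows. The lowest KO value exceeded the highest WT value in 5 members (let-7d, let-7f, let-7g, let-7i and miR-98), which form 4 of the 6 signals; this held for 15.9% of all tested rows. With library totals alone the same 5 were called (adjusted p 0.0249 to 0.0315), as were 6.96% of all tested rows on that scale, 6.62% as higher in KO.

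**Figure D2:**
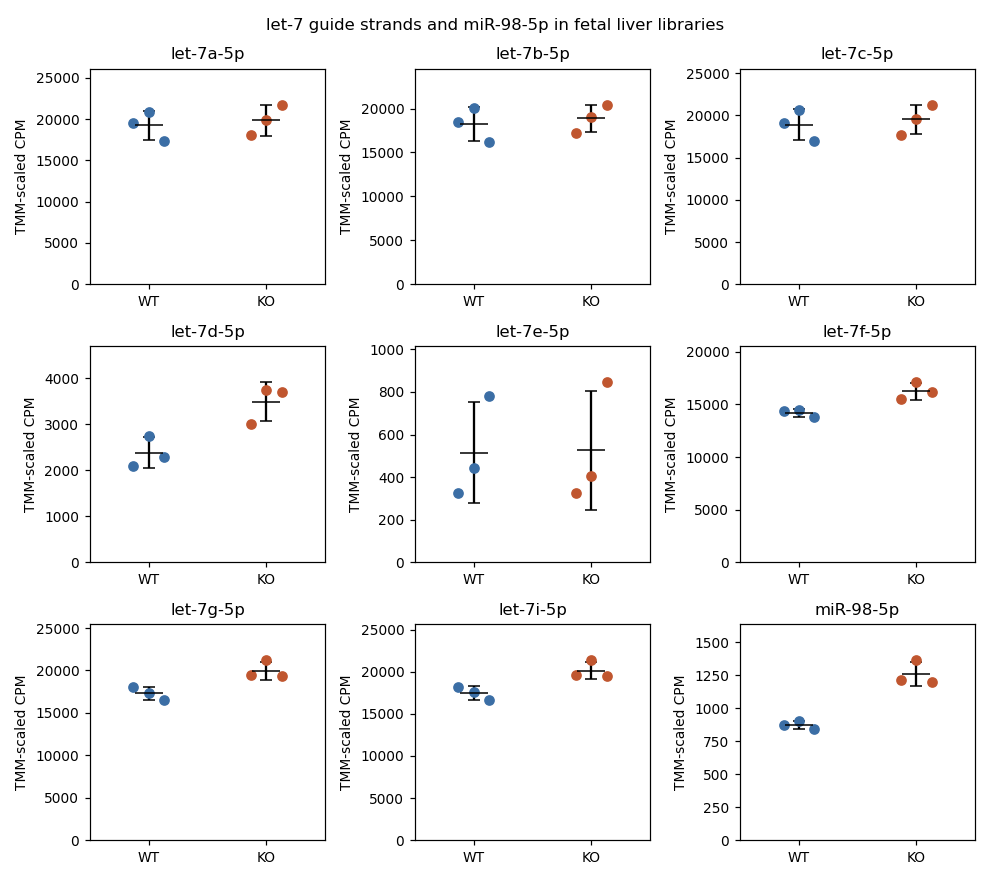
TMM-scaled CPM (linear axes from 0) of each member in the 3 WT (blue) and 3 KO (orange) libraries; points are libraries, black bars mean and SD, n = 3. miR-98-5p lies at 846 to 901 CPM in WT and 1200 to 1362 CPM in KO, while let-7e-5p spans 323 to 779 CPM within WT.

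let-7d-5p, which differs from let-7a-5p at its first and at its 16th base and has a single hairpin, had the largest fold. mmu-let-7d-5p stood at 2096, 2756 and 2295 CPM in WT and 3003, 3755 and 3713 CPM in KO. Every KO library lay above every WT library. The means differed 1.47-fold, with a log2 fold of 0.55 (SE 0.16, 95% interval 0.17 to 0.94, edgeR Benjamini-Hochberg adjusted p = 0.234; unadjusted 0.0118).

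miR-98-5p, the X-linked member, had the next largest fold and the clearest gap between genotypes. mmu-miR-98-5p stood at 871, 901 and 846 CPM in WT and at 1216, 1362 and 1200 CPM in KO. The gap between the highest WT and the lowest KO library was wider than the range within either genotype. The means differed 1.44-fold, with a log2 fold of 0.53 (SE 0.13, 95% interval 0.22 to 0.84, edgeR Benjamini-Hochberg adjusted p = 0.193; unadjusted 0.00528).

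The let-7g and let-7i signal and let-7f-5p differed by less, with KO values above WT values throughout. mmu-let-7g-5p was 18050, 17402 and 16531 CPM in WT and 19412, 21187 and 19299 CPM in KO, and mmu-let-7f-5p was 14335, 14503 and 13789 CPM in WT and 15476, 17092 and 16201 CPM in KO. Their means differed 1.15-fold and 1.14-fold. The log2 folds were 0.20 for let-7g-5p (SE 0.10, 95% interval -0.03 to 0.44) and 0.19 for let-7f-5p (SE 0.10, 95% interval -0.04 to 0.43), with edgeR adjusted p of 0.509 and 0.513. let-7i-5p gave 0.21 (SE 0.10, 95% interval -0.03 to 0.44), and, as shown by its counts, is not a separate measurement.

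The let-7a, let-7b and let-7c signal, the most abundant of the family in WT, overlapped between genotypes. mmu-let-7a-5p stood at 19485, 20897 and 17389 CPM in WT and at 18020, 19835 and 21763 CPM in KO. Its log2 fold was 0.05 (SE 0.12, 95% interval -0.24 to 0.34, edgeR Benjamini-Hochberg adjusted p = 0.964), with a sign that turned under DESeq2, under RLE scaling, with the locus removed before scaling, without WT library 3 and without KO library 6. let-7b-5p and let-7c-5p both gave 0.05 (SE 0.12) and turned under the same settings. let-7b-5p is annotated with its own hairpin, but its row cannot be read apart here.

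let-7e-5p was the least abundant member and the most variable. mmu-let-7e-5p stood at 323, 444 and 779 CPM in WT and 328, 405 and 845 CPM in KO, a coefficient of variation of 45.9% and 53.0%, where the other members had 2.63% to 14.2%. WT library 3 and KO library 6 were high in each genotype. Its log2 fold was 0.03 (SE 0.45, 95% interval -1.05 to 1.11, adjusted p = 0.999), so neither a doubling nor a halving between genotypes lay outside the interval. That sign turned under DESeq2, RLE scaling and removal of the locus, and it was -0.50 without KO library 6 and 0.37 without WT library 3.

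**Figure D3:**
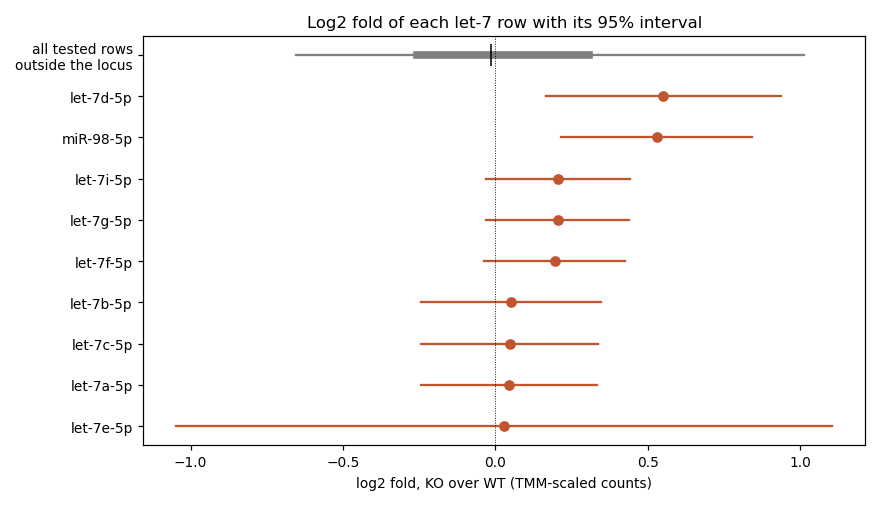
Log2 fold of KO over WT for each member (points) with its 95% interval (lines), from the edgeR fit, unadjusted for the number of tests. The grey bar gives the middle 50% and the grey line the 5th to 95th percentile of the 873 tested rows outside the locus, -0.66 to 1.01; let-7d-5p and miR-98-5p lie at 0.55 and 0.53, inside that line.

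By level, the signals in WT ran from let-7a/b/c (18803 ± 1855 CPM) and let-7g/i (17397 ± 785 CPM), whose libraries overlapped, to let-7f (14209 ± 373 CPM), let-7d (2382 ± 339 CPM), miR-98 (872.7 ± 27.8 CPM) and let-7e (515 ± 236 CPM; SD, n = 3 each). In KO let-7g/i (20052 ± 1051 CPM) and let-7a/b/c (19432 ± 1735 CPM) again overlapped, and the order of the others was the same. Adapter ligation captures miRNAs with unequal efficiency, so the order of different sequences is less certain than the change of 1 sequence between libraries.

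Within the pool, let-7d and miR-98 were the signals whose shares did not overlap between genotypes. With same-prefix rows counted once, let-7d took 3.83%, 4.87% and 4.49% of the WT pool and 5.25%, 5.93% and 5.94% of the KO pool. miR-98 took 1.59%, 1.59% and 1.65% in WT and 2.13%, 2.15% and 1.92% in KO. The differences of the means were 1.31 and 0.45 percentage points. The let-7a/b/c share was 34.6% ± 1.65 in WT and 31.8% ± 1.74 in KO, that of let-7g/i 32.1% ± 1.12 and 32.9% ± 1.64, that of let-7f 26.3% ± 0.688 and 26.7% ± 0.632, and that of let-7e 0.966% ± 0.493 and 0.855% ± 0.432 (SD, n = 3 each), all overlapping. In percentage points the let-7a/b/c share differed most, by -2.82. Shares of 1 pool sum to 100%, so they do not vary freely, and they were not tested.

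Ratios of cluster neighbours within a library do not depend on library scaling. Set against let-7f-5p, which the neighbouring Mirlet7f-2 and also Mirlet7f-1 encode, miR-98-5p stood at 6.08%, 6.22% and 6.13% in WT and at 7.86%, 7.97% and 7.41% in KO. let-7d-5p stood at 10.8%, 13.2% and 13.2% of the let-7a-5p count in WT and at 16.7%, 18.9% and 17.1% in KO, where Mirlet7a-1 is its chromosome 13 neighbour but other hairpins add to that row. Both ratios separated the genotypes, 1.26-fold and 1.42-fold between the means. Over let-7f-5p, whose Mirlet7f-1 lies nearest to Mirlet7d, let-7d-5p stood at 14.6%, 19.0% and 16.6% in WT and at 19.4%, 22.0% and 22.9% in KO. That ratio differed 1.28-fold, and its highest WT library came close to its lowest KO library. These pairs were chosen after their values were seen, so they are a description with no test.

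**Figure D4:**
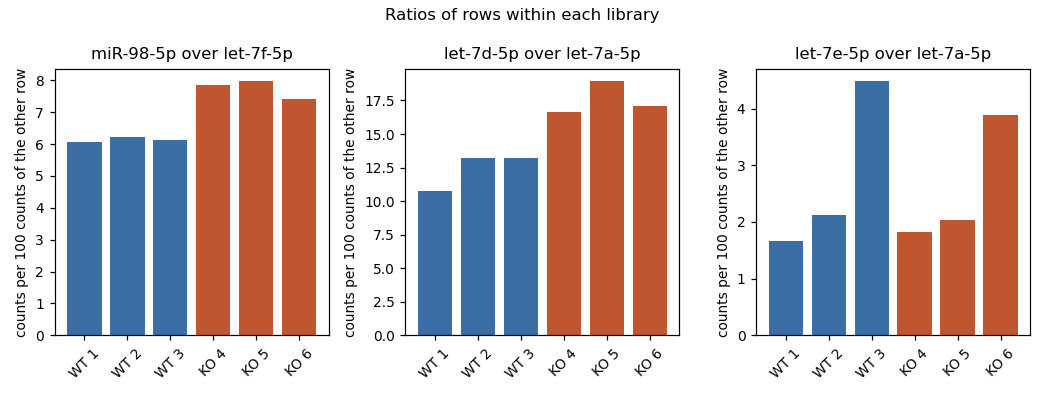
Counts of 1 row per 100 counts of another within each library (bars from 0; blue WT, orange KO). miR-98-5p over let-7f-5p and let-7d-5p over let-7a-5p are higher in all 3 KO libraries, whereas let-7e-5p over let-7a-5p is high in WT library 3 (4.48) and KO library 6 (3.88).

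The passenger arms, the 3p strands that are mostly discarded when the guide is loaded, overlapped between genotypes in every tested row. Of 11 passenger rows 10 were tested, 0 passed by edgeR in either direction, 0 had an unadjusted edgeR p under 0.05, and DESeq2 and limma-voom called 0. Among all 876 tested rows 0.799% passed by edgeR and 11.3% had an unadjusted edgeR p under 0.05. DESeq2 and limma-voom called 1% and 0.913% of the rows they tested. Every KO library lay above every WT library in 15.9% of all tested rows and below in 5.94%. On the TMM scale 8 passenger log2 folds were positive and 2 negative (median 0.18), beside 416 positive of all 873 tested rows outside the locus. let-7d-3p stood at 136, 136 and 194 CPM in WT and 162, 135 and 184 CPM in KO, with overlapping groups and a log2 fold of 0.05 (SE 0.22). miR-98-3p was 9.18, 10.2 and 5.51 CPM in WT and 9.38, 15.1 and 7.59 CPM in KO, a log2 fold of 0.36 (SE 0.35). The most abundant passenger row was let-7a-1-3p, whose WT mean was 257 ± 47.2 CPM and whose KO mean was 267 ± 113 CPM (SD, n = 3 each). The remaining tested arms were let-7i-3p (log2 fold 0.44, SE 0.29), let-7f-1-3p (0.41, SE 0.48), let-7c-1-3p (0.28, SE 0.64), let-7g-3p (0.19, SE 0.21), let-7f-2-3p (0.17, SE 0.45), let-7e-3p (-0.54, SE 0.43) and let-7b-3p (-1.07, SE 0.62). let-7a-2-3p had 1 count over all 6 libraries and was not tested. No row was named for the 3p arm of Mirlet7c-2.

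Guide to passenger ratios differed by orders of magnitude between passenger rows and none passed the test between genotypes. Many are not ratios within 1 hairpin. Several hairpins encode the guides let-7a, let-7c and let-7f, and the guide rows of let-7a/b/c, let-7g/i and let-7e cannot be read apart from others. The ratio ran from 18.4 guide reads per passenger read for let-7d to 41025 for let-7b, where the guide row has nearly the counts of let-7a and let-7c and the passenger row averaged 10.5 counts. For let-7d the log2 ratio was 3.95, 4.34 and 3.57 in WT and 4.21, 4.80 and 4.34 in KO, overlapping, a difference of 0.50 (SE 0.24, limma Benjamini-Hochberg adjusted p = 0.779). For miR-98 the difference was 0.18 (SE 0.28) and for let-7g 0.03 (SE 0.18). Of 10 let-7 ratios, 1 had an unadjusted limma p under 0.05, where 5.26% of all 266 hairpins had one. It was that of let-7b-3p, with 10, 21 and 11 counts in WT and 2, 4 and 15 in KO, a log2 ratio difference of 1.28 (SE 0.37, limma adjusted p = 0.764). It passed only without KO library 6, where the difference was 1.75 (adjusted p = 0.00168) on 2 KO libraries with 2 and 4 passenger counts. That ratio was higher in every KO than in every WT library, as for 4.89% of all row pairs tested. No let-7 ratio was lower throughout, as 7.14% of those pairs were. Over all 266 row pairs tested 0 passed, a share of 0%.

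The miRNAs transcribed beside let-7 hairpins, miR-99, miR-100 and miR-125, had mostly negative log2 folds, none with an interval that left out 0. Of 11 rows, both arms, 10 were tested, 0 passed by edgeR, 0 had an unadjusted p under 0.05, DESeq2 and limma-voom called 0, and 9 of the 10 log2 folds were negative on the TMM scale (median -0.46), all but miR-125a-3p at 0.02. Of all 873 tested rows outside the locus, 457 were negative (median -0.01), and 11.3% of all 876 tested rows had an unadjusted p under 0.05. By adjusted p, 0.799% of the 876 passed by edgeR, and DESeq2 and limma-voom called 1% and 0.913% of the rows they tested. All 10 neighbour rows overlapped between genotypes. Of all tested rows, 15.9% had every KO library above every WT library and 5.94% had every KO library below. miR-99a-5p, near Mirlet7c-1, was 247, 193 and 379 CPM in WT and 148, 167 and 212 CPM in KO, with overlapping groups and a log2 fold of -0.63 (SE 0.29, edgeR adjusted p = 0.490). miR-100-5p, near Mirlet7a-2, was 26.0, 7.46 and 11.4 CPM in WT and 7.67, 4.69 and 7.89 CPM in KO (log2 fold -1.14, SE 0.48). Its high value came in WT library 1, where the summed muscle miRNAs (3 of 3, miR-1a-3p, miR-133a-3p and miR-206-3p) were also highest, at 400.4 CPM against 13.3 to 83.5 CPM elsewhere; their part in it was not tested. miR-125b-5p, a haematopoietic stem cell miRNA, had a log2 fold of -0.59 (SE 0.35).

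let-7e and the 2 miRNAs of its chromosome 17 cluster were high in the same libraries. miR-125a-5p stood at 380, 447 and 1050 CPM in WT and at 364, 297 and 792 CPM in KO, and miR-99b-5p at 305, 324 and 613 CPM in WT and at 212, 233 and 403 CPM in KO. For let-7e-5p, miR-125a-5p and miR-99b-5p alike, WT library 3 and KO library 6 held the highest value of their genotype. The pattern was not particular to this cluster. The same libraries were highest for miR-99a-5p (379 and 212 CPM) and miR-125b-5p (183 and 144 CPM), rows of other let-7 clusters. For miR-100-5p this held in KO only. The hepatocyte miRNA miR-122-5p was 29326, 50135 and 117809 CPM in WT and 37312, 42833 and 92272 CPM in KO, highest in the same 2 libraries. So were the summed endothelial miRNAs (10524 and 11047 CPM) and the summed mesenchymal miRNAs (3043 and 2887 CPM). Among the mesenchymal rows, miR-199a-3p and miR-214-3p were highest in WT library 1. The myeloid, pan-haematopoietic and muscle sums were highest in neither of the 2 libraries. The part of any of these in the let-7e level was not tested. The log2 folds of miR-125a-5p and miR-99b-5p were -0.37 (SE 0.51) and -0.55 (SE 0.37).

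**Figure D5:**
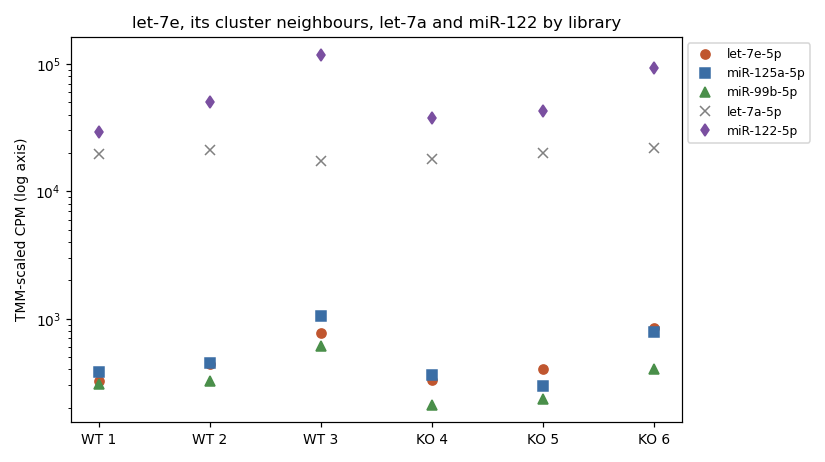
TMM-scaled CPM (log axis) of let-7e-5p, its cluster neighbours miR-125a-5p and miR-99b-5p, let-7a-5p and miR-122-5p in each library; points are libraries. let-7e-5p, both neighbours and miR-122-5p are highest in WT library 3 and KO library 6 within their genotype, while let-7a-5p stays between 17389 and 21763 CPM.

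Likeness to the pool over the 6 libraries was ranked among the 218 miRNAs outside the family and its lists with a mean of at least 100 CPM. The pool used was the one that kept let-7b apart. The 5 whose log2 level followed it most closely were miR-26a-5p, miR-128-3p, miR-1198-5p, miR-744-5p and miR-499-5p. Their Pearson correlations with the pool were 0.93, 0.88, 0.86, 0.83 and 0.82, given as a description over libraries that share genotype and scaling. miR-26a-5p, an abundant miRNA, was 12559, 12858 and 12057 CPM in WT and 12892, 15676 and 15551 CPM in KO. Every KO library lay above every WT library for it, with a log2 fold of 0.24 (SE 0.12, edgeR adjusted p = 0.513), near that of let-7g-5p.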

How the data were processed

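Per the labels, RNA from a Qiagen miRNeasy Mini kit went into NEXTflex small RNA libraries run on an Illumina HiSeq2000. HITS-CLIP is named in the series' design text, but the labels of these 6 libraries describe miRNA sequencing. Of tools, the submitters' processing notes list cutadapt alone, which trims adapters. For the aligner, miRNA annotation and genome build, nothing is given in the sources used here. The deposited table holds raw counts per mature miRNA and library, per the file headers. It also holds a percent per library that the authors derived from the counts, equal to the count over the library total to within 4.96e-09.

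Counts were fitted in R 4.3.3 with edgeR 4.0.16 (filterByExpr, TMM, glmQLFit, glmQLFTest) over 876 rows, with 750 left out by the filter and all 9 members kept. P-values were adjusted by Benjamini-Hochberg over all tested rows. SE was approximated as |log2 fold| over the root of F, and intervals use the quasi-likelihood degrees of freedom. DESeq2 1.42.0, limma-voom (limma 3.58.1), other scalings, no filter, collapsed rows and left-out libraries were alternatives. Arm ratios, log2((5p + 1)/(3p + 1)), were tested with limma's trend method over 266 pairs of a 5p and a 3p row, both averaging at least 10 counts. The fits were tested on simulated data with planted changes larger than the fold of any member. Whether changes as small as those of the members could be found was not tested. No 2 libraries of a genotype matched within sampling noise (chi-square per degree of freedom 152 to 2335). A count of 0 allows up to 0.111 to 0.185 CPM of the library, taking 3 counts as the limit, for counting error only.

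Rows within 5% of each other in every library were treated as 1 signal in the pool, without a test on reads. Named were all members, passenger arms with a mean of at least 10 counts, seed sharers, near-identical rows, the 5p neighbours, miR-451a, miR-122-5p and the 5 rows most like the pool. Other marker lists gave summed CPM, WT then KO, of 15317 to 20385 and 8637 to 16014 (myeloid), 28586 to 34107 and 25850 to 38760 (pan-haematopoietic), 7323 to 10524 and 7735 to 11047 (endothelial) and 2224 to 3043 and 1979 to 2887 (mesenchymal). Members and lists were chosen with earlier results of these data known. Loop sequences are not reported here.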

Additional observations from a re-analysis of the deposited data

How the results depend on the processing

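With 3 libraries per genotype, the 95% intervals of 7 of the 9 members' log2 folds included 0, all but let-7d-5p and miR-98-5p. By adjusted p, 0 members were called in 14 of 15 alternatives; with library totals 5 were. Over all tested rows, calls were 7 by edgeR, 15 by DESeq2, 61 with library totals, 4 with RLE or upper-quartile scaling, the locus removed or rows collapsed, and 3 to 4 with libraries left out. The pool's log2 ratio, 0.14, stayed above 0 throughout: 0.50 in percent of the library, 0.24 with upper-quartile scaling (which moved the median of all rows to 0.09), 0.022 to 0.150 with 1 library left out and 0.035 without WT replicate 3 and KO replicate 6 together; 0.07 was its lowest value under the other scalings and row choices. Folds near 0 turned sign. Under DESeq2 they were -0.018 for let-7a-5p, -0.012 for let-7b-5p, -0.017 for let-7c-5p and -0.049 for let-7e-5p. With RLE scaling they were -0.025, -0.019, -0.024 and -0.053 in the same order, with the locus removed before scaling -0.032, -0.026, -0.031 and -0.070, and without WT replicate 3 and KO replicate 6 together -0.121, -0.116, -0.119 and -0.090. Leaving out 1 library gave -0.094 to 0.054, -0.100 to 0.062, -0.095 to 0.054 and -0.50 to 0.37. let-7d-5p, let-7f-5p, let-7g-5p, let-7i-5p and miR-98-5p stayed above 0 in every alternative. Arm ratio calls were 0 to 1 with 1 library left out. The pool with the same first 16 bases counted once was chosen after seeing the data. The causes were not tested. No paired analysis was possible because WT and KO libraries share no replicate numbers.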

Other observations

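let-7j, a row that differs from let-7i-5p by G8U within the seed and by 2 added 3′ bases, and was named after its values were seen, held 0.283% to 0.312% of the let-7i-5p count in every library. Its level was 56.7, 55.0 and 47.0 CPM in WT and 59.9, 65.3 and 58.4 CPM in KO, with a log2 fold of 0.21 (SE 0.18), beside 0.21 (SE 0.10) for let-7i-5p. Whether these are let-7i reads with a changed base or a separate RNA was not tested.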
